A study of Danio rerio with 10 samples.

Results

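The genes described here are 9 heat shock factors and chaperones of the zebrafish: hsf1 and hsf2 (heat shock factors), hspa8, hsp90ab1 and hspb1 (cytosolic chaperones), hspd1, hspe1 and hspa9 (mitochondrial chaperones) and hsp90b1 (endoplasmic reticulum). They were chosen by name, and each matched exactly 1 of the 32233 rows of the expression table. RNA was sequenced from gata1-positive erythroid cells of embryos at 24 hours post fertilization. There were 5 libraries from sf3b1 mutants (replicates 1, 3, 4, 5 and 6) and 5 from wild-type siblings (replicates 2 to 6). The mutant allele, how gata1-positive cells were recognised and how many embryos made up a library are not given in the sources used here. sf3b1 encodes a core protein of the SF3b complex, which binds the branch point of introns during splicing, and gata1 encodes a master transcription factor of red blood cells.

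Heat shock factors are transcription factors that bind heat shock elements in promoters and switch on chaperone genes when unfolded proteins build up. Chaperones then hold, fold or refold proteins: HSP70 proteins bind short exposed stretches with the help of J-domain partners, HSP90 proteins finish the folding of kinases and receptors, and small heat shock proteins hold unfolded proteins without using ATP. Each compartment has its own set, with HSP60 and HSP10 forming a folding chamber in mitochondria and an HSP90 of its own working in the endoplasmic reticulum. In mammalian red cell precursors, HSP70 in the nucleus is known to protect GATA1 from caspases.

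sf3b1 itself, checked first, ranged from 15.996 to 21.3 FPKM across mutants and from 36.3 to 43.9 FPKM across siblings, without overlap. Its log2 fold change was -1.05 (SE 0.13, limma adjusted p = 3.26e-04). FPKM is a read abundance corrected for gene length and for sequencing depth, and fold changes are of FPKM + 1 unless said otherwise. FPKM sums per library ran from 293816 to 422870, and low values gave depths of 0.578 (mutant 3) to 1.26 (sibling 6) relative to mutant 1. All 9 listed erythroid markers were detected, with summed levels of 2414 to 8576 FPKM in mutants and 4878 to 21953 FPKM in siblings. Of the 9, 0 passed the test by limma, and the globin genes hbae3 and hbbe3 had the highest means (6306 and 5488 FPKM in siblings). The 10 epidermal markers summed to 331.5 to 1076 FPKM in mutants and 294.9 to 722.7 FPKM in siblings, with mutant 1 and sibling 2 the highest of their groups. Mutant 1 and sibling 2 also stood apart on the second principal component, and sibling 2 carries a wild-type title but a mutant genotype tag. In sibling 2 sf3b1 was at 41.0 FPKM, within the range of the other siblings. On the first principal component siblings scored 23.8 (sibling 2) to 40.5 and mutants -34.2 to -30.4. Which of the 2 labels is right was not tested. Summed myeloid markers did not overlap, at 76.1 to 180.8 FPKM across mutants and 243.8 to 538.3 FPKM across siblings, and 4 of 6 fell (mpx, lyz, npsn and mpeg1.1). Skeletal muscle markers summed to 40.4 to 129.7 FPKM across mutants and 77.7 to 205.5 FPKM across siblings, and 2 of 7 tested, acta1b and ckma, fell. The 4 neural markers summed to 18.4 to 62.7 FPKM across mutants and 27.1 to 53.1 FPKM across siblings. For the 4 endothelial markers the sums were 59.5 to 78.7 and 59.2 to 84.9 FPKM, and 0 of either set passed the test. The part of these other cells in the results was not tested. In bulk RNA, fewer cells of a type and less RNA per cell cannot be told apart.

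Among the 9 genes, the factor hsf1 and the 3 mitochondrial chaperones rose in mutants, while the abundant cytosolic chaperones, hsf2 and the endoplasmic reticulum chaperone did not pass the test. The rises by ratio of mean FPKM were 3.99-fold for hspe1, 3.84-fold for hsf1, 2.12-fold for hspd1 and 1.94-fold for hspa9. All 9 passed the filter on low values, and 4 rose and 0 fell at a limma adjusted p under 0.05, taken over 13003 tested genes. At an unadjusted p under 0.05 those numbers were 5 and 0, the fifth being hspb1. Of all tested genes 5.59% rose and 8.74% fell by the same rule (727 and 1137 genes). After quantile normalization 987 rose and 1008 fell, so the split over all genes depends on the scaling, and the same number of members, 4, rose. The ranges of mutants and siblings did not overlap for the same 4 members and for 12.2% of tested genes. Over all 9 members the median log2 fold change was 0.92, beside -0.06 over all tested genes. Without mutant 1 and sibling 2 together 5 members rose, and with sibling 2 counted as a mutant 3 did.

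**Figure D1:**
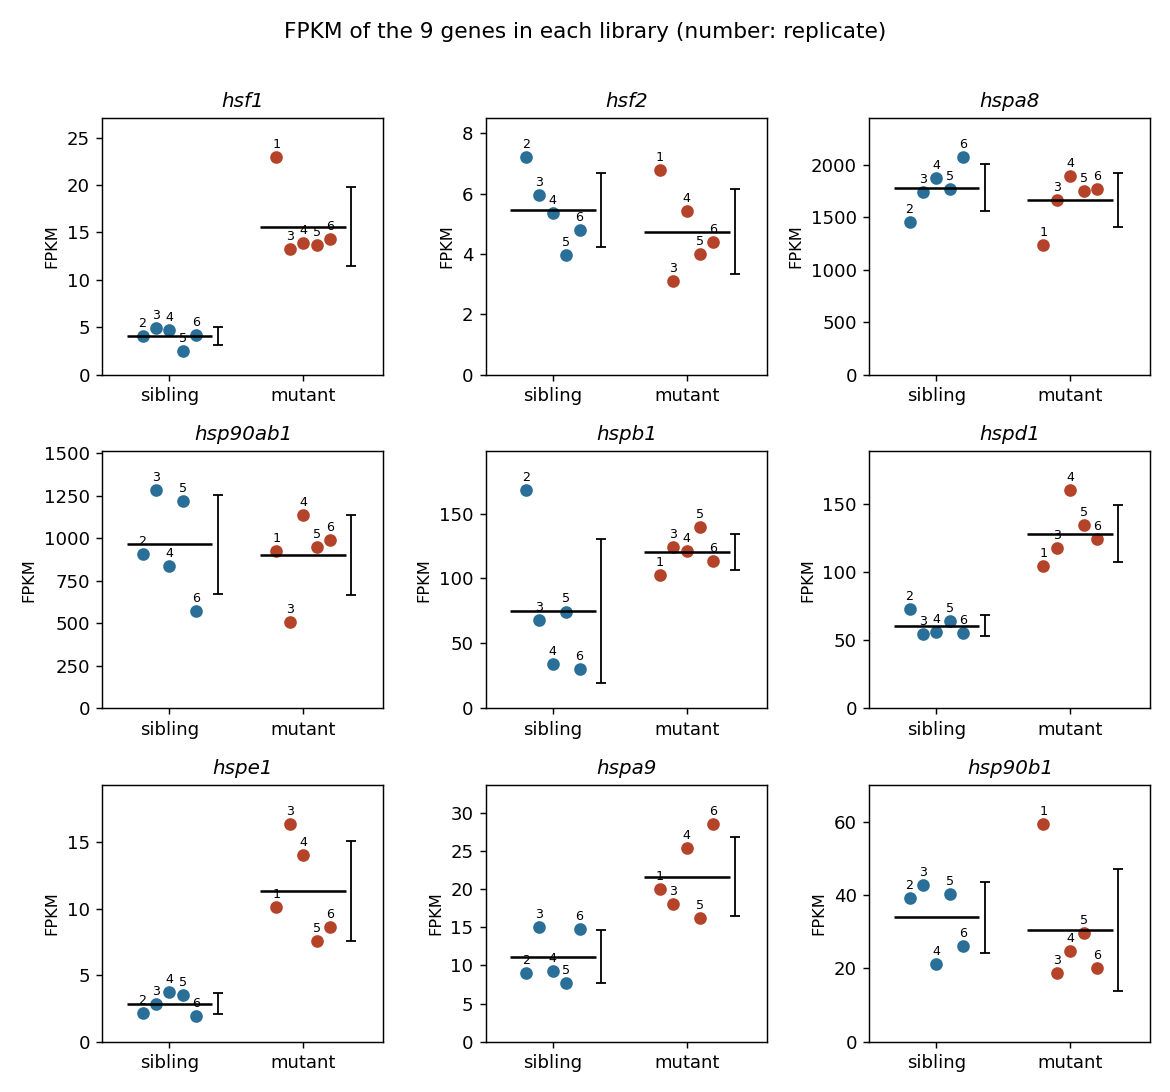
FPKM (vertical axis, from 0) of each of the 9 genes in the 5 sibling (blue) and 5 mutant (red) libraries, with the replicate number above each point, the mean as a line and the SD as a bar. The groups lie apart for hsf1, hspd1, hspe1 and hspa9 and overlap for the other genes.

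hsf1, the main activator of the heat shock response, rose in all mutants. hsf1 (ENSDARG00000008818, GRCz10 chromosome 19, 3115552 to 3141370) lay at 23.0, 13.2, 13.9, 13.6 and 14.3 FPKM in mutants 1, 3, 4, 5 and 6, against 4.08, 4.91, 4.67, 2.46 and 4.21 FPKM in siblings 2 to 6. Every mutant lay above every sibling, with mutant 1 the highest and the other 4 mutants close together. The means were 15.6 ± 4.14 and 4.06 ± 0.96 FPKM (SD, n = 5), a log2 fold change of 1.71 (SE 0.19, limma adjusted p = 2.15e-04). Without mutant 1 and sibling 2 the log2 fold change was 1.57 (limma adjusted p = 7.35e-04).

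hsf2, a related factor that can pair with hsf1 in mammals and acts in development, did not pass the test. hsf2 (ENSDARG00000053097, chromosome 20, 40578466 to 40590174) lay at 6.79, 3.10, 5.43, 3.99 and 4.39 FPKM in the mutant libraries, against 7.22, 5.97, 5.37, 3.97 and 4.78 FPKM in siblings. The groups overlapped over most of their range. Its log2 fold change was -0.18 with a 95% interval of -0.61 to 0.24 (limma adjusted p = 0.585), and it ran from -0.30 without mutant 1 to -0.072 without mutant 3. The level of hsf2 relative to hsf1 thus changed: the FPKM ratio of hsf2 to hsf1 was 0.235 to 0.390 in mutants and 1.14 to 1.77 in siblings. On the log2(FPKM + 1) scale this ratio was lower by 1.89 in mutants (difference -1.89, two-sided exact permutation p = 0.0079, the smallest that 252 relabellings can give, 0.0159 adjusted over the 2 ratios tested). This difference is the log2 fold change of hsf2 minus that of hsf1, so it restates the rise of hsf1 and is not a separate result. Of other genes of this group, the binding protein gene hsbp1b, whose mammalian product binds and restrains HSF1, averaged 59.5 FPKM in mutants and 60.3 FPKM in siblings (limma adjusted p = 0.996). hsf4, hsf5 and hsbp1a were below the mean of 1 FPKM needed for the test.

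The 3 mitochondrial members rose together. hspd1 encodes HSP60, the chaperonin whose rings enclose proteins newly imported into the matrix. hspd1 (ENSDARG00000056160, chromosome 9, 32475859 to 32490037) lay at 104.4, 117.7, 160.04, 134.6 and 124.0 FPKM in the mutant libraries, against 72.7, 54.6, 55.9, 63.9 and 55.4 FPKM in siblings. Every mutant lay above every sibling, and sibling 2 was the highest sibling. The means were 128.2 ± 20.9 and 60.5 ± 7.78 FPKM (SD, n = 5), a log2 fold change of 1.06 (SE 0.15, limma adjusted p = 8.32e-04).

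hspe1 encodes HSP10, the lid of the HSP60 chamber. hspe1 (ENSDARG00000056167, chromosome 9, 32490271 to 32494261) lay at 10.1, 16.4, 14.0, 7.56 and 8.58 FPKM in the mutant libraries, against 2.18, 2.84, 3.73, 3.52 and 1.93 FPKM in siblings. The lowest mutant, mutant 5, was above the highest sibling, sibling 4. The log2 fold change was 1.66 (SE 0.22, limma adjusted p = 6.27e-04), and 1.94 on log2(FPKM + 0.1), since the added 1 weighs on such low values. With sibling 2 counted as a mutant the call ended (limma adjusted p = 0.0752).

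The FPKM ratio of hspe1 to hspd1 had a mean of 0.0898 ± 0.0317 in mutants and 0.0478 ± 0.0151 in siblings (SD, n = 5). The ratios overlapped between groups, at 0.0561 to 0.139 in mutants and 0.0301 to 0.0667 in siblings. On the log2(FPKM + 1) scale the difference was 0.59 (two-sided exact permutation p = 0.0556, 0.0556 adjusted over the 2 ratios), so a change in the proportion of the pair did not pass at this setting. It passed with 0.1 added in place of 1 (difference 0.86, adjusted exact permutation p = 0.0159). Leaving out mutant 5 or sibling 4 also let it pass (0.73 and 0.70, adjusted exact permutation p = 0.0238 and 0.0476). In every other alternative it did not pass. The difference was 0.28 with sibling 2 counted as a mutant and 0.42 without mutant 1 and sibling 2 (adjusted exact permutation p = 0.424 and 0.2).

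hspa9 encodes mortalin, the HSP70 of mitochondria, which pulls proteins through the inner membrane and takes part in assembling iron-sulfur clusters. hspa9 (ENSDARG00000003035, chromosome 14, 11836799 to 11862883) lay at 20.0, 18.0, 25.4, 16.2 and 28.6 FPKM in the mutant libraries, against 8.99, 15.04, 9.22, 7.70 and 14.7 FPKM in siblings. The groups did not overlap, but mutant 5 and sibling 3 were close, at 16.2 and 15.04 FPKM. The means were 21.6 ± 5.18 and 11.1 ± 3.47 FPKM (SD, n = 5), a log2 fold change of 0.92 (SE 0.22, limma adjusted p = 0.0162). The call ended with sibling 2 counted as a mutant (log2 fold change 0.66, limma adjusted p = 0.204).

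hspd1 and hspe1 lie beside each other and near the mutated gene. Their rows are 233 bases apart, and hspd1 starts 109 kb from the end of sf3b1 on chromosome 9. In vertebrates this pair is transcribed in opposite directions from a shared promoter. An effect of the mutation and one of the chromosome stretch inherited with it cannot be told apart here. The next genes on the far side of hspe1 did not pass the test: mob4 averaged 2.65 FPKM in mutants and 3.61 FPKM in siblings (limma adjusted p = 0.337), and rftn2 3.57 and 2.996 FPKM (limma adjusted p = 0.626). Of 18 tested genes within 1 Mb of sf3b1, 3 rose and 3 fell (16.7% each), and their median log2 fold change was -0.0094. Of all tested genes 5.59% rose and 8.74% fell. Without the members 1 of 16 rose and 3 fell, with a median of -0.19. hspd1 and hspe1 are among the 3 that rose, and the third, si:dkey-145p14.5, was at 19.0 ± 1.52 and 5.43 ± 1.31 FPKM (SD, n = 5). Its log2 fold change was 1.65 (limma adjusted p = 5.36e-05). The rows on the sf3b1 side of hspd1 within 100 kb of its centre were at 0 FPKM in every library. ankrd44, zgc:112056 and plcl1 fell by 0.64, 0.71 and 0.69 on the log2 scale. All 3 were weakly expressed, so the added 1 weighs on these folds. Siblings averaged 2.17, 1.51 and 2.95 FPKM for them, while the mutant averages were 1.01, 0.53 and 1.44. A filter at a mean of 5 FPKM drops all 3, and 0 genes within 1 Mb were then called lower. Without sibling 5 only plcl1 was called lower, since ankrd44 missed the threshold (limma adjusted p = 0.0555) and zgc:112056 was under the filter. With sibling 2 counted as a mutant 0 of these were called lower by limma (4 of the 18 at an unadjusted p under 0.05 in the main grouping). Over chromosome 9 without sf3b1, 29 of 457 tested genes rose and 44 fell. hspa9 and hsf1 lie on other chromosomes.

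**Figure D2:**
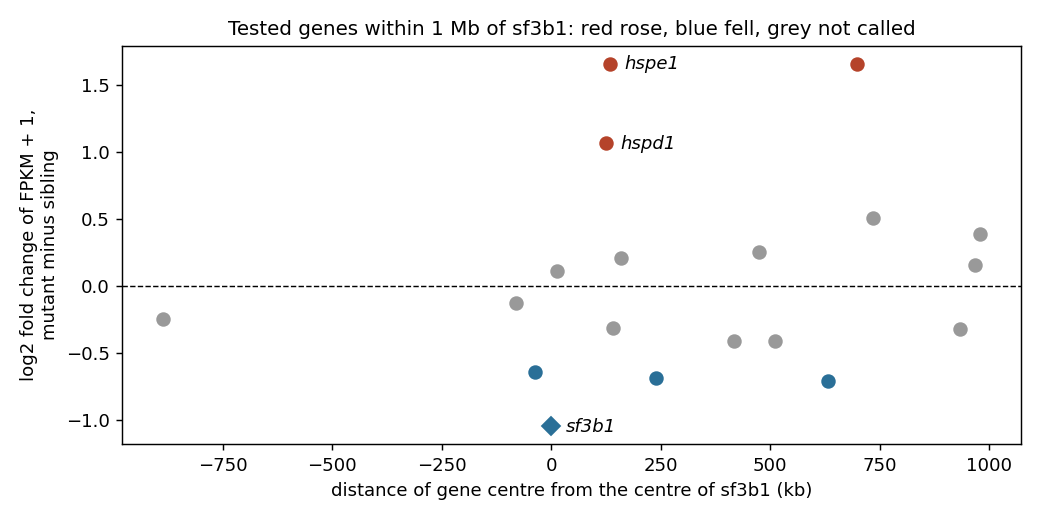
Log2 fold change of FPKM + 1 (mutant minus sibling, vertical axis) of the 18 tested genes within 1 Mb of sf3b1 against the distance of their centre from that of sf3b1 in kb (horizontal axis), with sf3b1 itself as a diamond. hspd1 (1.06) and hspe1 (1.66) stand above mob4 and rftn2, si:dkey-145p14.5 (1.65) lies about as high as hspe1, and 3 genes other than sf3b1 fell.

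The other mitochondrial chaperones and proteases went both ways. Of 26 tested genes of this list, members included, 8 rose and 3 fell, their median log2 fold change being 0.18. Without the members 5 of 23 rose and 3 fell, with a median of 0.08. Of all tested genes 5.59% rose and 8.74% fell. With the members, 5 rose when mutant 5 was left out and 3 with sibling 2 counted as a mutant. lonp1, the main protease of the matrix, was at 20.3 ± 1.54 and 11.4 ± 1.26 FPKM (SD, n = 5) in mutants and siblings, without overlap (limma adjusted p = 0.0015). dnaja3a, a J-domain partner of mitochondrial HSP70, rose by 0.75 on the log2 scale. clpb, a mitochondrial disaggregase in animals, fell from 7.75 ± 1.31 FPKM in siblings to 2.79 ± 0.74 in mutants (SD, n = 5, limma adjusted p = 6.48e-04). phb2a, a prohibitin of the inner membrane, fell by 0.84 on the log2 scale. trap1, the mitochondrial HSP90, had means of 5.08 and 4.73 FPKM and grpel1, the exchange factor of hspa9, 15.9 and 14.4 FPKM (limma adjusted p = 0.775 and 0.551).

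The abundant cytosolic chaperones did not pass the test in either direction. hspa8, the constitutive HSP70 (HSC70), is the most abundant member (ENSDARG00000068992, chromosome 10, 29963106 to 29967488). It lay at 1231, 1664, 1895, 1748 and 1772 FPKM in the mutant libraries, against 1456, 1737, 1871, 1769 and 2075 FPKM in siblings. Mutant 1 and sibling 2 were the lowest of their groups, and the groups overlapped. The log2 fold change was -0.11 with a 95% interval of -0.51 to 0.29 (limma adjusted p = 0.751). It was -0.0017 without mutant 1 and -0.18 without sibling 2 (limma adjusted p = 0.996 and 0.595).

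hsp90ab1, the constitutive cytosolic HSP90, likewise overlapped between groups (ENSDARG00000029150, chromosome 20, 51384538 to 51398620). It lay at 926.1, 505.7, 1139, 947.8 and 992.4 FPKM in the mutant libraries, against 907.9, 1282, 836.2, 1221 and 570.8 FPKM in siblings. The log2 fold change was -0.09, with a 95% interval of -0.68 to 0.51 (limma adjusted p = 0.871), and it turned positive without mutant 3 (0.11), sibling 3 (0.031) or sibling 5 (0.013). The row of slc35b2, at 2.96 and 2.98 FPKM, spans the same stretch. hspa8 and hsp90ab1 together gave 86.9 to 89.8% of the summed FPKM of the 9 members in mutants and 88.7 to 95.3% in siblings.

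hspb1 encodes HSP27, a small heat shock protein that binds actin and unfolded proteins (ENSDARG00000041065, chromosome 5, 3238284 to 3255083). It lay at 102.3, 124.1, 121.2, 139.6 and 113.2 FPKM in the mutant libraries, against 167.8, 68.3, 33.6, 74.5 and 30.4 FPKM in siblings. The mutants were within a narrow band and above 4 of the 5 siblings, while sibling 2 was above every mutant. The coefficient of variation was 11.5% in mutants and 74.2% in siblings, or 44.3% in the 4 siblings other than sibling 2. The means of 120.1 ± 13.8 and 74.9 ± 55.6 FPKM (SD, n = 5) gave a log2 fold change of 0.94, with a 95% interval of 0.12 to 1.77 (limma adjusted p = 0.121). Without sibling 2 it was 1.30 and passed (limma adjusted p = 0.0087). It also passed with sibling 2 counted as a mutant, with array weights and without mutant 1 and sibling 2 (1.38, 1.104 and 1.36, limma adjusted p = 0.0161, 0.0384 and 0.0109). In 16 of 21 alternatives it did not pass. Without sibling 4 or sibling 6 it was 0.73 or 0.70 (limma adjusted p = 0.255 and 0.241). Sibling 2 had the highest sums of epidermal and skeletal muscle markers among siblings (722.7 and 205.5 FPKM). Siblings 4 and 6, the lowest in hspb1, had the highest sums of erythroid markers (15339 and 21953 FPKM). Other libraries went the other way. Mutant 1, the lowest mutant in hspb1, had the highest epidermal sum (1076 FPKM) and the lowest erythroid sum (2414 FPKM) of all libraries. The epidermal sum of sibling 4 (405.4 FPKM) was above those of siblings 3, 5 and 6. The part of these cells in the result was not tested. Of the 3 other tested small heat shock genes, hspb7, hspb8 and hspb9, 0 passed by limma (1 rose and 1 fell at an unadjusted p under 0.05). By limma 1 fell with array weights or without sibling 6. With the replicate number as a block 2 small heat shock genes, hspb1 included, rose.

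hsp90b1 encodes GRP94, the HSP90 of the endoplasmic reticulum, which folds integrins and Toll-like receptors in mammals (ENSDARG00000003570, chromosome 4, 9835549 to 9842920). It lay at 59.3, 18.6, 24.6, 29.7 and 20.2 FPKM in the mutant libraries, against 39.1, 42.8, 21.1, 40.3 and 26.0 FPKM in siblings. Mutant 1 was above every other library, and the other mutants overlapped with the siblings. Mutant 1 also had the highest sums of epidermal (1076 FPKM) and neural markers (62.7 FPKM) of all libraries. Among mutants it had the highest sum of skeletal muscle markers (129.7 FPKM). The part of those cells in the result was not tested. The log2 fold change was -0.23, with a 95% interval of -0.89 to 0.43 (limma adjusted p = 0.671). It was -0.49 without mutant 1 and -0.089 without mutant 3, and passed in neither case (limma adjusted p = 0.173 and 0.891). Of 32 tested endoplasmic reticulum chaperone genes, this one included, 2 (6.25%) rose and 0 fell by limma. That share is near the 5.59% of all tested genes that rose, while 8.74% fell. At an unadjusted p under 0.05, 3 rose and 1 fell, and the median was 0.0087. By limma 1 fell without mutant 1, mutant 4 or sibling 6, and 2 fell with the replicate number as a block. With array weights, and without mutant 1 and sibling 2 together, 1 fell as well. The 2 that rose by limma were canx, the lectin chaperone calnexin, and dnajc10, a disulfide reductase with a J domain. In mutants and siblings canx was at 166.4 ± 16.7 and 99.1 ± 7.62 FPKM, and dnajc10 at 14.0 ± 1.70 and 7.33 ± 1.19 FPKM (SD, n = 5). hspa5, which encodes the HSP70 of this compartment, BiP, had means of 717.9 ± 329.4 and 609.2 ± 235.2 FPKM (SD, n = 5, limma adjusted p = 0.716).

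**Figure D3:**
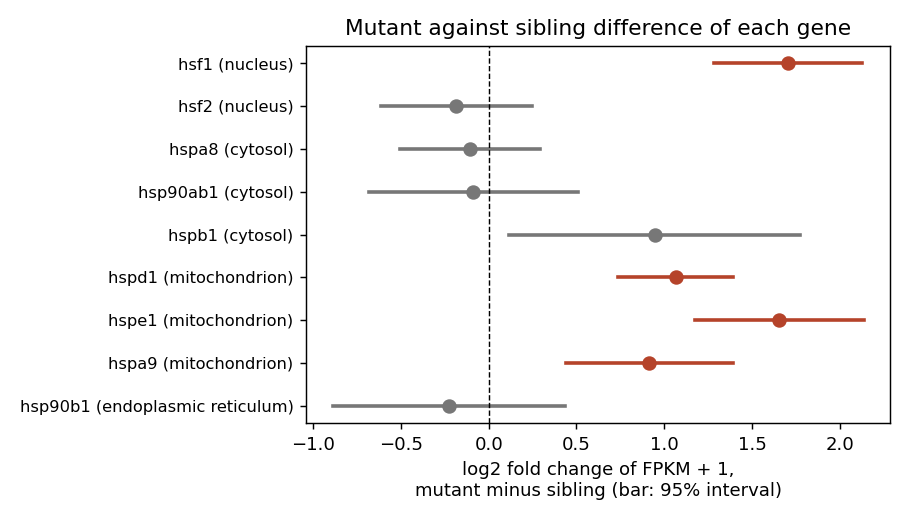
Log2 fold change of FPKM + 1 (mutant minus sibling) of each of the 9 genes with its 95% interval, in red where the gene rose at a limma adjusted p under 0.05. hsf1, hspd1, hspe1 and hspa9 lie well to the right of 0, and the interval of hspb1 (0.12 to 1.77) excludes 0 although its adjusted p is 0.121.

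The order of the members by FPKM, a per-length level, differed between the groups. In siblings it was hspa8, hsp90ab1, hspb1, hspd1, hsp90b1, hspa9, hsf2, hsf1 and hspe1, and in mutants hspa8, hsp90ab1, hspd1, hspb1, hsp90b1, hspa9, hsf1, hspe1 and hsf2. Without sibling 2 the sibling mean of hspb1 (51.7 FPKM) was below that of hspd1 (57.4 FPKM), as in mutants. hsf2 stood above hsf1 and hspe1 in siblings and last in mutants. In siblings the ranges of neighbours in that order overlapped for hspb1 with hspd1, hsf2 with hsf1, and hsf1 with hspe1. In mutants they overlapped for hspd1 with hspb1 and from hsp90b1 through hspa9 and hsf1 to hspe1.

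Of 27 tested genes that heat shock factors induce, members included, 7 (25.9%) rose by limma, where 5.59% of all tested genes did, and 0 fell. At an unadjusted p under 0.05, 11 rose and 2 fell, and the median log2 fold change was 0.30. Without the members 5 of 23 rose and 0 fell by limma, with a median of 0.29. The 7 that rose were hspd1, hspe1, the HSP90 co-chaperone genes ahsa1a, stip1 and fkbp4, the J-domain gene dnaja1 and the collagen chaperone gene serpinh1a. The count of 7 became 2 when any 1 of mutants 3, 5 and 6 and siblings 4 and 6 was left out. Those 2 were the members hspd1 and hspe1. The count was 3 without mutant 4 or sibling 5. The heat-inducible HSP70 genes hsp70l, hsp70.1, hsp70.2 and hsp70.3 belong to 1 gene family whose members may share reads, which was not measured, so their single values are uncertain. hsp70l averaged 1047 ± 265.2 FPKM in mutants and 1366 ± 471.4 FPKM in siblings (SD, n = 5, limma adjusted p = 0.473), and hsp70.1 had 94.5 ± 30.2 and 154.7 ± 43.2 FPKM (SD, n = 5, limma adjusted p = 0.112). hsp70.2 and hsp70.3 had log2 fold changes of -0.49 and -0.31 (limma adjusted p = 0.329 and 0.439).

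A different HSP70 gene, which is in the HSP70 list but not in the inducible list and whose human namesake is heat-inducible, did rise. hspa1b (named si:ch211-199o1.2 in the table, ENSDARG00000056210) lay at 15.6, 17.8, 14.1, 23.0 and 16.8 FPKM in the mutant libraries, against 7.05, 3.96, 0.94, 2.29 and 1.65 FPKM in siblings. Every mutant was at least at 14.1 FPKM and every sibling at most at 7.05 FPKM, with sibling 2 the highest sibling. Its log2 fold change of 2.31 (SE 0.33, limma adjusted p = 8.32e-04) was larger than that of any of the 9 members. Reads shared with the more abundant HSP70 genes were not measured for hspa1b either, so its values are also uncertain.

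bag3 and hsph1, which heat shock factors induce, encode co-chaperones of HSP70. bag3 lay at 98.8, 88.1, 80.7, 133.2 and 66.1 FPKM in the mutant libraries, against 82.5, 47.8, 8.50, 46.7 and 14.2 FPKM in siblings, a log2 fold change of 1.57 (limma adjusted p = 0.0582). hsph1, an HSP110 gene, lay at 21.4 to 39.9 FPKM in the mutant libraries, against 33.1, 24.7, 6.50, 16.3 and 10.2 FPKM in siblings (limma adjusted p = 0.104). In both genes, as in hspb1, siblings 4 and 6 were the lowest and sibling 2 the highest sibling. Both passed without sibling 2 (limma adjusted p = 0.0178 and 0.0319). Siblings 4 and 6 were also the lowest siblings in the members hsp90ab1 and hsp90b1. The same held for hspa5, fkbp4, hsp90aa1.1, hsp90aa1.2, hsp70l, hsp70.1, hsp70.2 and hsp70.3. Sibling 2 was also the highest sibling in hsp90aa1.1, fkbp4 and hspa5. In hspa8, by contrast, sibling 6 was the highest sibling and sibling 2 the lowest. The cause of this split was not tested. Among other inducible genes, serpinh1b, hsp90aa1.2, hsp90aa1.1, dnajb1a and dnajb1b had log2 fold changes of 0.29, 0.01, 0.30, 0.51 and -0.34, and 0 of them passed by limma. dnajb1a passed without mutant 1 (limma adjusted p = 0.0260). dnajb1b was at 149.9 FPKM in mutant 1 and 489.9 to 632.8 FPKM in the other mutants. Its log2 fold change was 0.026 without mutant 1.

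**Figure D4:**
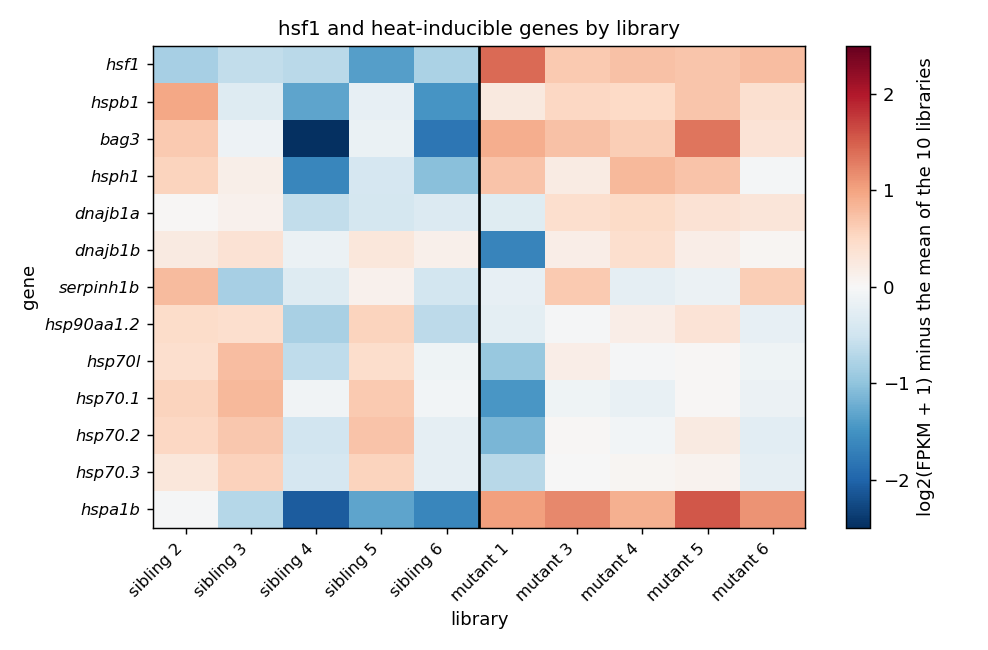
Levels of hsf1, of hspb1 and of 11 further HSP70, HSP90 and co-chaperone or chaperone genes (rows) in each library (columns, siblings left of the line and mutants right), as log2(FPKM + 1) minus the mean of the 10 libraries. hsf1 and hspa1b are high in every mutant, hspb1, bag3, hsph1 and hsp90aa1.2 are lowest in siblings 4 and 6, and the hsp70 genes are lowest in mutant 1.

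Partners of the cytosolic chaperones are given beside the 5.59% of all tested genes that rose and the 8.74% that fell. Of 21 tested genes of the HSP90 family and its co-chaperones 5 rose and 0 fell by limma, with a median of 0.13. At an unadjusted p under 0.05, 6 rose and 1 fell. By limma 1 fell without mutant 1 or sibling 3, with median of ratios scaling, without the trend and with array weights. ptges3a, the p23 co-chaperone, was at 15.8 ± 2.51 and 8.74 ± 1.47 FPKM (SD, n = 5, limma adjusted p = 0.0056). The other 4, stip1, fkbp4, ahsa1a and nudcd3, lost their calls in turn, so that 1 rose without mutant 4, mutant 5 or sibling 4, 2 without mutant 3, mutant 6 or sibling 6 and 3 without sibling 3 or sibling 5. The count was also 3 with no filter on low values and with sibling 2 counted as a mutant.

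Of 40 tested J-domain genes 7 rose and 1 fell, with a median of 0.20. Among them dnajc21, a factor of ribosome assembly, was at 21.2 ± 2.21 and 14.8 ± 0.92 FPKM (SD, n = 5, limma adjusted p = 0.0184). dnajc2, which acts at the ribosome, fell by 0.56 on the log2 scale, and its call ended without mutant 1, 3, 4 or 5 or sibling 2, 5 or 6 (limma adjusted p of 0.0514 to 0.0754), as it did under quantile normalization. The number that rose was 3 without mutant 4, mutant 5 or sibling 4 and 4 without sibling 2, 5 or 6. With sibling 2 counted as a mutant 2 rose, and dnajc21 was among those that lost their call (limma adjusted p = 0.223).

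Of 14 HSP110 and exchange factor genes 1 rose, hspa4b (22.9 and 15.8 FPKM), and 1 fell, bag6 (10.1 and 15.5 FPKM). The call of hspa4b ended without mutant 4, 5 or 6 or sibling 4 or 5 (limma adjusted p of 0.0526 to 0.0635). Of 12 HSP70 family genes hspa9 and hspa1b rose and 0 fell by limma, with a median of -0.16. At an unadjusted p under 0.05, 2 rose and 2 fell. By limma 1 fell without mutant 5, after quantile normalization and with a filter at a mean of 5 FPKM. With sibling 2 counted as a mutant 1 rose. Over all these lists, each gene once, 24 of 137 tested genes rose and 5 fell, with a median of 0.11.

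**Figure D5:**
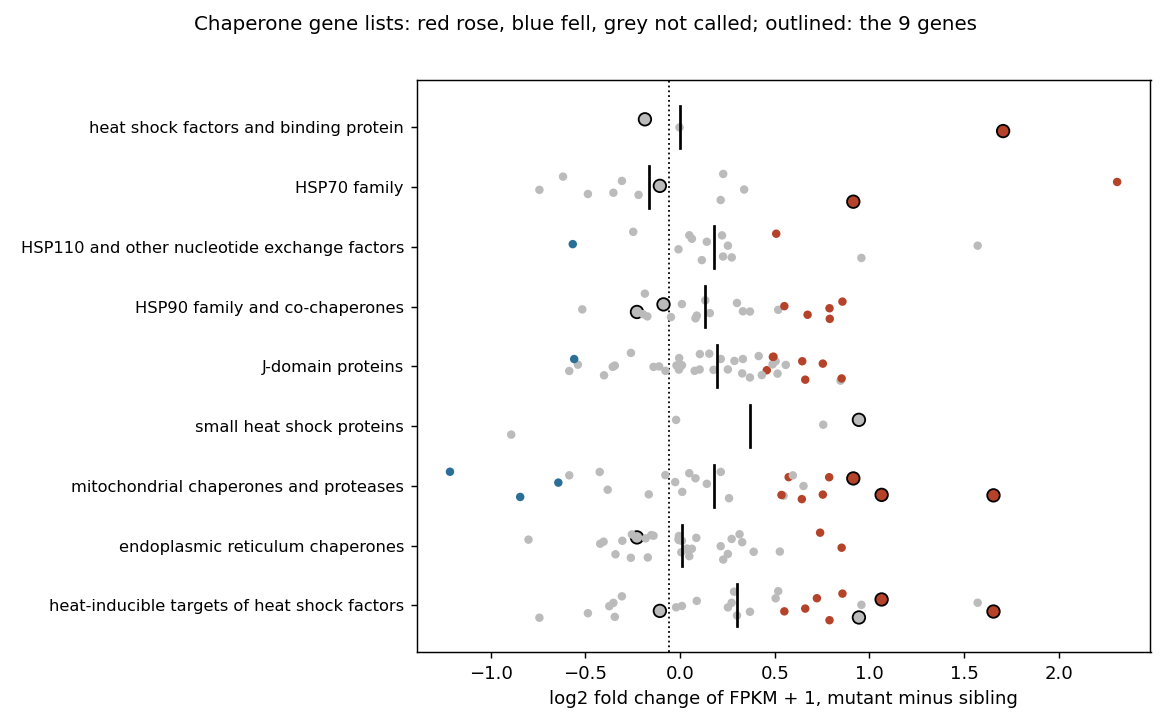
Log2 fold change of FPKM + 1 (mutant minus sibling, horizontal axis) of each tested gene of 9 chaperone lists, with the median of each list as a bar, the median of all tested genes (-0.06) as a dotted line and the 9 members outlined. By count the rises were most in the mitochondrial (8 of 26), inducible (7 of 27), J-domain (7 of 40) and HSP90 (5 of 21) lists. The lists differ in length and share genes, and with each gene counted once 24 of 137 rose. Each list also holds genes that did not pass the test.

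The genes whose pattern over the 10 libraries was most like each member were found by the root mean square difference of centred log2(FPKM + 1), among genes with a mean of at least 5 FPKM. For hsf1 they were uspl1 and gpank1 (0.11 and 0.22), both lower in all siblings and highest in mutant 1. For hspd1 they were sap18 and ssr3 (0.081 and 0.13), for hspe1 sf3a2 and med10 (0.30 and 0.30), and for hspa9 dpm2 and tmem33 (0.17 and 0.21). The nearest members lay at 0.48 for hsf1 (hspe1), 0.41 for hspd1 (hspa9), 0.48 for hspe1 (hspd1) and 0.41 for hspa9 (hspd1). These distances cannot be weighed against those above, since the closest genes were picked from a far larger set than the members. For hspa8 the closest were zfpm1 and hcfc1a (0.062 and 0.063), and for hspb1 fam46ba and p4ha2 (0.25 and 0.31).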

How the data were processed

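RNA was depleted of ribosomal RNA and made into libraries with a stranded kit, per the labels' protocols. The submitters' processing notes name Trim Galore, STAR 2.4.2a, Picard, Cufflinks 2.2.1 and build GRCz10; the use of strand in counting is not stated there. Values were deposited as FPKM, per the file headers, and absolute depth is therefore unknown. Low values stood at whole-number ratios to mutant 1 (within 0.01 on the log2 scale) in 15.3 to 25.2% of cases, which gave relative depth but no recovered reads. Table starts were raised by 1 base, after which 37 of 37 mitochondrial genes matched the reference table. The number of per-sample columns left unused was 0.

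Libraries were grouped by title. limma 3.58.1 (R 4.3.3, mean-variance trend) was fitted across all genes on log2(FPKM + 1) for rows averaging 1 FPKM or more. P-values were adjusted by the Benjamini-Hochberg method and called under 0.05. Ratios of 2 members were tested by exact permutation. Whether each library is a separate clutch is not stated in the labels, and p-values cover only the spread among these samples, which may be technical. The members, lists and tests were chosen with earlier results of these data known. Members and a fixed set of heat shock genes are named whatever their values, and of each list up to 6 called genes with the smallest p, not all of which are printed. hspb7, hspb8, hspb9, nudcd3 and serpinh1a were named after their values were seen. Of 177 list symbols 165 matched, some through the present name of their gene ID. The mutant and sibling comparison was tested on simulated data of 13003 genes with sets of 50 altered genes. It recovered 6% of those altered 1.5-fold and 48% of those altered 2-fold. Recovery was 84% for 3-fold and 90% for 4-fold, while 5 unaltered genes were called. Folds were of FPKM + 1, noise was drawn independently for each gene, and altered genes had a mean log2(FPKM + 1) above 1.5. Far fewer genes were altered there than were called in the real data (727 and 1137), which makes the adjustment stricter. These percentages therefore do not give the recovery in the real data. Alternatives were other pseudocounts, filters, scalings and limma settings, sibling 2 as a mutant, both outlying libraries left out, each library left out and a replicate block. Replicate numbers were not taken to pair libraries. Python 3.11.15 with pandas 2.3.3, numpy 2.4.6, scipy 1.17.1 and matplotlib 3.10.9 was used. Sequences are not used here.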

Additional observations from a re-analysis of the deposited data

Results flagged for a closer look

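In 24 sets of 5 values (the 9 genes, sf3b1 and the 2 ratios, each in mutants and in siblings), 2 held a library far from the others, where chance gives about 1 in 20. hsf1 was at 22.96 FPKM in mutant 1, where the gap to the next mutant took 0.891 of the range of the group. hsp90b1 was at 59.3 FPKM in mutant 1, with a gap of 0.728 of the range. Mutant 1 also had the highest sums of epidermal (1076 FPKM) and neural markers (62.7 FPKM) and the lowest of erythroid markers (2414 FPKM). The part of any of these in the 2 values was not tested.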

How the results depend on the processing

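Over 21 alternatives each, the direction and side of the threshold of hsf1, hspd1, hsf2, hspa8 and hsp90b1 did not change, while hspe1 and hspa9 lost their calls only with sibling 2 counted as a mutant. hsf1 ranged from 1.17 to 1.92 and hspd1 from 0.98 to 1.24 on the log2 scale. Taking sibling 2 as a mutant, 300 genes were called higher and 461 lower, and with a mean of at least 5 FPKM 755 of 6284 tested genes (12.02%) fell. With 1 library left out 741 to 1238 genes fell, the lowest without sibling 4, and 524 to 735 rose. The hspe1 to hspd1 difference was 0.86 with 0.1 added, and 0.43 to 0.73 with 1 library left out. It was 0.28 with sibling 2 counted as a mutant and 0.42 without mutant 1 and sibling 2. The hsf2 to hsf1 difference was -1.43 with sibling 2 counted as a mutant and -1.79 without mutant 1 and sibling 2, where 4 against 4 libraries allow no p below 0.0286 (adjusted exact permutation p = 0.0952 and 0.0571), and -1.97 to -1.81 with 1 library left out.

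Same-numbered libraries had correlations of -0.03, 0.09, 0.10 and 0.15 in their deviations from the group means. Correlations of differently numbered libraries were not set beside them, so these values do not decide whether the numbers pair libraries. The main fit did not take the numbers as pairs. With the replicate number as a block, in which mutant 1 and sibling 2 have no partner and add nothing to the fold, hspb1, bag3 and dnajb1a gained calls (limma adjusted p = 0.0134, 0.0184 and 0.0325). The fold of hspb1 (1.36) was that without these 2 libraries. ankrd44, zgc:112056, DNAJA4, dnajc2 and dnaja2 lost theirs (limma adjusted p = 0.073, 0.052, 0.053, 0.0859 and 0.080), and the hsf2 to hsf1 difference was -1.79 (adjusted exact permutation p = 0.25, where 4 pairs allow no p below 0.125).

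Directions of genes near 0 turned: hsp90ab1 and hsp90aa1.2 with 1 library left out (-0.26 to 0.11 and -0.19 to 0.15) and grpel1 with sibling 2 as a mutant (-0.013). hsbp1b turned under median of ratios (0.072), quantile normalization (0.10), array weights (0.058) and sibling 2 as a mutant (0.21). It also turned with the block and without mutant 1 and sibling 2 (0.085 each) and with 1 library left out (-0.074 to 0.12). dnajb1b, at -0.34 in the main fit, turned only where mutant 1 was left out or added nothing. It was 0.038 with the block and without mutant 1 and sibling 2, and -0.49 to 0.026 with 1 library left out, the highest without mutant 1. The cause was not tested. Of 849 values of the other named genes under alternatives, 729 kept their call and direction, 89 lost and 13 gained a call, and 18 turned. Absolute depth is unknown, so precision at low FPKM, as for hspe1 in siblings, could not be stated.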
